A study of Homo sapiens with 6 samples.

Results

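Wide origin regions are stretches of at least 2000 bp in which nascent-strand peaks were listed in every sample of the study. They were found by pooling the 4 deposited peak lists on chromosomes 1 to 22 and X, and by merging peaks that touched or overlapped into regions. Of 534833 merged regions, 57116 held a peak from all 4 samples, and 2213 of these were at least 2000 bp wide. The 2213 wide regions made up 3.87% of the shared regions but 12.4% of their merged width. The regions were chosen by presence in all 4 lists and by merged width, so both are given as a description and not as a result.

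Replication of human chromosomes starts at many origins. In G1 phase the origin recognition complex, with CDC6 and CDT1, loads the MCM helicase onto DNA, and a part of these licensed sites fires in S phase. Initiation can be confined to a short site or be spread over a broad zone, where different cells start at different positions. ORCA, encoded by LRWD1, associates with this complex and stabilises its binding to chromatin. Nascent-strand sequencing (NS-seq) reads short new DNA that starts with an RNA primer, so that stretches of enriched reads mark places where synthesis began in the cell population. A wide region can therefore stand for a zone with many starts, for several close sites, or for a stretch whose borders differ between samples.

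The samples came from U2OS, a human osteosarcoma cell line grown in DMEM with serum. The cells were transfected with siRNA, either gl3 as the control or one that targets ORCA (siORCA), at a dose and for a time that the labels do not give. NS-seq was done on 2 control and 2 siORCA samples, and the labels list 2 samples of genomic DNA, 1 for each transfection, which were not analysed here. The assay reads DNA, so neither the level of ORCA nor the identity of the cells could be checked from these lists. Nothing in the labels says that replicates are separate cultures, so each p-value reflects the spread among these samples alone, which may be technical.

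The lists held 181132, 235444, 329933 and 198486 peaks on these chromosomes in control 1, control 2, siORCA 1 and siORCA 2, covering 58.5, 67.0, 86.1 and 64.0 Mb. They hold no read counts, so depth is unknown, and the number and length of peaks in a list can move with depth. The siORCA 1 list stood apart as the longest. Positions are on T2T-CHM13. No sequence or gene annotation of that build was used here, so positions carry no gene names.

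The wide regions ran from 2000 to 10396 bp with a median of 2381 bp. Most were close to the lower bound, with 1301 (58.8%) under 2500 bp, 514 from 2500 to under 3000 bp, 315 from 3000 to under 4000 bp, 52 from 4000 to under 5000 bp and 31 of 5000 bp or more. Across the bound there was no gap, since 459 shared regions were from 1900 to under 2000 bp wide and 375 from 2000 to under 2100 bp. Regions of exactly 2000 bp began at 60959211 on chromosome 11 (end 60961210), 55419480 on chromosome 16 (end 55421479) and 18105887 on chromosome 17 (end 18107886). The first of these was covered over 1401, 231, 898 and 1546 bp in control 1, control 2, siORCA 1 and siORCA 2. Shared regions of 1999 bp, just outside, began at 837141 on chromosome 19 (end 839139) and at 1586923 and 72726660 on chromosome 16 (ends 1588921 and 72728658). The one on chromosome 19 was covered over 999, 198, 1451 and 1999 bp in the same order. Regions on both sides of the bound were thus covered unevenly by the samples.

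A merged width of 2000 bp was often reached by joining shorter peaks. In 1000 of the 2213 regions (45.2%) no list held a single peak of that width, in 883 (39.9%) 1 list did, in 205 it was 2 lists, in 85 it was 3 lists, and in 40 (1.81%) all 4 lists did. The median of the longest single peak in a region was 1125, 932, 1175 and 1298 bp in control 1, control 2, siORCA 1 and siORCA 2. When 1 list was dropped and the other 3 were merged again, 565 regions fell below 2000 bp without control 1, 540 without control 2, 726 without siORCA 1 and 640 without siORCA 2. These are separate shares, from 24.4% for control 2 to 32.8% for siORCA 1, of regions that needed the list in question to reach the bound, and more regions needed either siORCA list than either control list.

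The samples overlapped within the regions in part. All 4 samples covered the same base over 22.6% of the merged width, 3 samples over 21.5%, 2 samples over 24.0% and 1 sample alone over 32.0%. In the 54903 narrower shared regions these shares were 24.8%, 20.7%, 22.4% and 32.1%, so over pooled bases the mix of shared and private stretches was nearly the same. Per region it was not, since the median share of the width covered by all 4 samples was 17.4% in wide and 25.3% in narrower regions. The stretch covered by all 4 samples at once, called the core here, had a median of 432 bp in the wide regions, with 10% of regions below 66.2 bp and 10% above 1313 bp. In 56 regions the core reached 2000 bp or more. In 185 regions (8.36%) it was 0 bp, which means that all samples had a peak in the region but no base was common to all of them.

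Agreement between pairs of samples was measured by the Jaccard index, the length covered by both over the length covered by either. Inside the wide regions it was highest for control 1 with siORCA 2, at 0.526, and next for siORCA 1 with siORCA 2, at 0.515. It was 0.472 for control 1 with siORCA 1, 0.439 for control 2 with siORCA 2, 0.423 for the 2 control samples and 0.420 for control 2 with siORCA 1. The order did not follow the treatment, since a pair that crosses the groups ranked first and the control pair last but one. Each of the 6 values was below that of the same pair in the narrower regions, which ran from 0.441 to 0.538.

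Coverage was flat across the regions and not concentrated at their centres. At 50 bp from the centre, peaks covered 61.1%, 54.5%, 63.3% and 67.0% of the regions in control 1, control 2, siORCA 1 and siORCA 2. At 950 bp from the centre on the same side these shares were still 53.1%, 48.7%, 61.6% and 58.0%. They dropped to between 10.2% and 12.7% at 1450 bp, beyond the edge of most regions. The plateau rests on the choice of regions at least 2000 bp wide, and the heights of the lines are not free of that choice either, since each list helped to make the width.

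**Figure D1:**
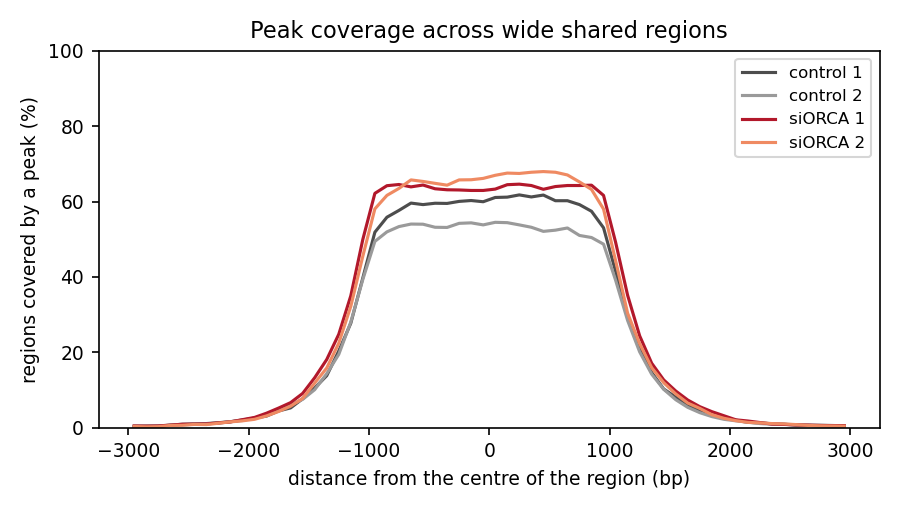
Share of the 2213 wide regions covered by a peak (vertical axis, %) against distance from the centre of the region (horizontal axis, bp, in bins of 100 bp), 1 line per sample. All 4 lines form a plateau out to about the bound set by the rule, with control 2 lowest (54.5% at 50 bp) and siORCA 2 highest there (67.0%).

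The widest region, of 10396 bp, lay on chromosome 21 from 41607483 to 41617878. Peaks covered 9589 bp of it in control 1, 10017 bp in control 2 and 10246 bp in siORCA 1, but 1614 bp in siORCA 2, where they were split into 4 pieces. In siORCA 1 it was a single peak of 10246 bp. The second, of 9952 bp, lay on chromosome 7 from 102197035 to 102206986 and was covered over 7528, 7856, 7980 and 2785 bp in control 1, control 2, siORCA 1 and siORCA 2. In both regions siORCA 2 stood far below the other 3 samples, while siORCA 1 covered slightly more than either control sample.

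The third widest region, of 8825 bp, spanned positions 1162747 to 1171571 of chromosome 11. It was covered over 7719, 7959, 8103 and 8158 bp in control 1, control 2, siORCA 1 and siORCA 2, with 2 peaks in each sample. Here the samples agreed closely, and the core of 6908 bp was the longest of all wide regions. The fourth, on chromosome 2 from 3193883 to 3200960, was covered over 5392, 4883, 2075 and 5828 bp, so that siORCA 1 was the low sample. The fifth, on chromosome 20 from 65507521 to 65514267, was covered over 6181, 6145, 6747 and 3162 bp, with siORCA 2 low again and split into 6 pieces. In 4 of the 5 widest regions, a single siORCA sample thus stood far below the other 3 samples. This did not hold for the class of 5000 bp or more. Of its 31 regions, control 2 covered the least in 12, siORCA 2 in 7, and control 1 and siORCA 1 in 6 each.

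Some of the wide regions were nearly the same in every list. After the region on chromosome 11, the longest cores measured 5275 bp, between 181602164 and 181607569 on chromosome 5, and 5193 bp, between 200186173 and 200192859 on chromosome 3. The region on chromosome 5 was 5406 bp wide and was covered by a single peak in each sample, over 5316, 5275, 5406 and 5313 bp. The core there took up 97.6% of the width. The region on chromosome 3 was covered over 6159, 6172, 6163 and 6686 bp. In the 56 regions with a core of at least 2000 bp, the median covered length was 3157, 2879, 3193 and 3120 bp in control 1, control 2, siORCA 1 and siORCA 2.

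**Figure D2:**
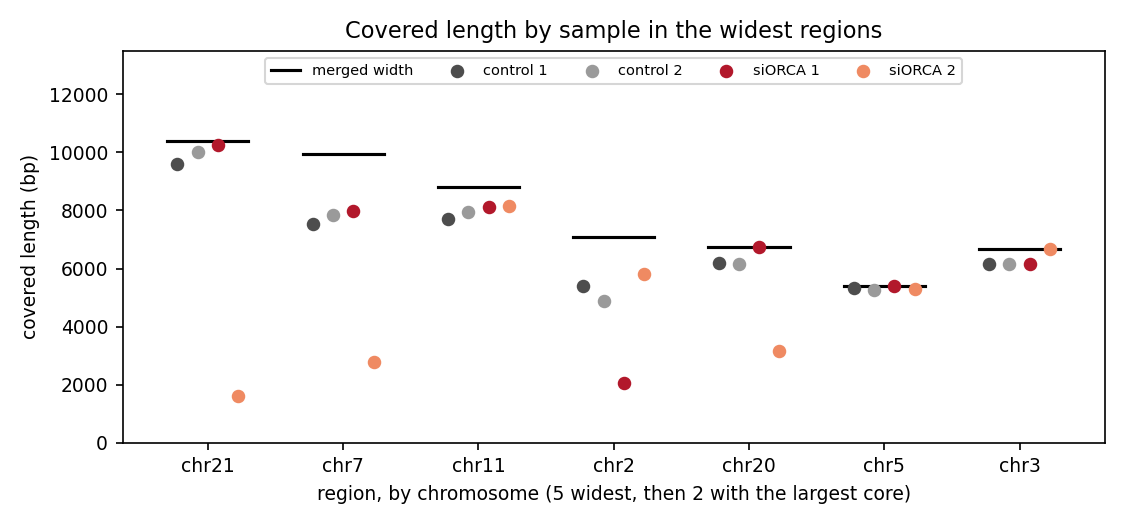
Covered length (vertical axis, bp) in each sample (points) for the 5 widest regions and the 2 further regions with the longest core, with the merged width as a black bar. On chromosomes 21, 7 and 20 the siORCA 2 point lies at 1614, 2785 and 3162 bp, and on chromosome 2 the siORCA 1 point lies at 2075 bp, while on chromosomes 11, 5 and 3 the 4 points lie close together.

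The number of separate peaks tells how far a region was broken up in a list. Wide regions held a mean of 1.57, 1.71, 1.87 and 1.59 peaks in control 1, control 2, siORCA 1 and siORCA 2. A single peak was listed in 1164, 976, 819 and 1107 regions in the same order, and 3 or more peaks in 8.77%, 12.8%, 20.4% and 7.77%. The siORCA 1 list, the longest, had the most peaks per region, and siORCA 2 lay between the control samples. In 210 regions every list held a single peak, and in 245 every list held more than 1. The 210 regions had a median core of 30.1% of their width, against 17.5% in the 245 regions and 17.4% over all wide regions.

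The regions in most pieces lay on chromosomes 1, 12 and 6. The one on chromosome 1 from 43177864 to 43184295 held 3, 5, 7 and 1 peaks in control 1, control 2, siORCA 1 and siORCA 2, covering 4426, 4242, 2897 and 6131 bp. The same stretch was thus a nearly continuous peak in one siORCA sample and the most broken up in the other. The region on chromosome 12 from 7141749 to 7148208 held 4, 4, 5 and 3 peaks. The region on chromosome 6 from 33890676 to 33896910 held 4, 8, 1 and 2 peaks and was covered over 1876, 1398, 6235 and 1280 bp, so that siORCA 1 alone joined the whole of it. In that region 8 peaks in control 2 and 2 peaks in siORCA 2 covered similar lengths, so the number of peaks did not give the covered length.

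Covered length per wide region was compared between samples. The median was 1408, 1239, 1588 and 1584 bp in control 1, control 2, siORCA 1 and siORCA 2. The lowest and highest values were 106 and 9589 bp in control 1, 92 and 10017 bp in control 2, 82 and 10246 bp in siORCA 1, and 103 and 8158 bp in siORCA 2. As a share of the merged width, the median was 57.1%, 49.5%, 62.2% and 64.8% in that order. Control 2 covered the least of the 4 samples in 926 regions (41.8%), and siORCA 2 did so in 322 (14.6%). In the class of 5000 bp or more, which holds 31 regions, siORCA 1 covered a median of 81.2% of the width, siORCA 2 70.1%, control 1 68.8% and control 2 62.7%.

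**Figure D3:**
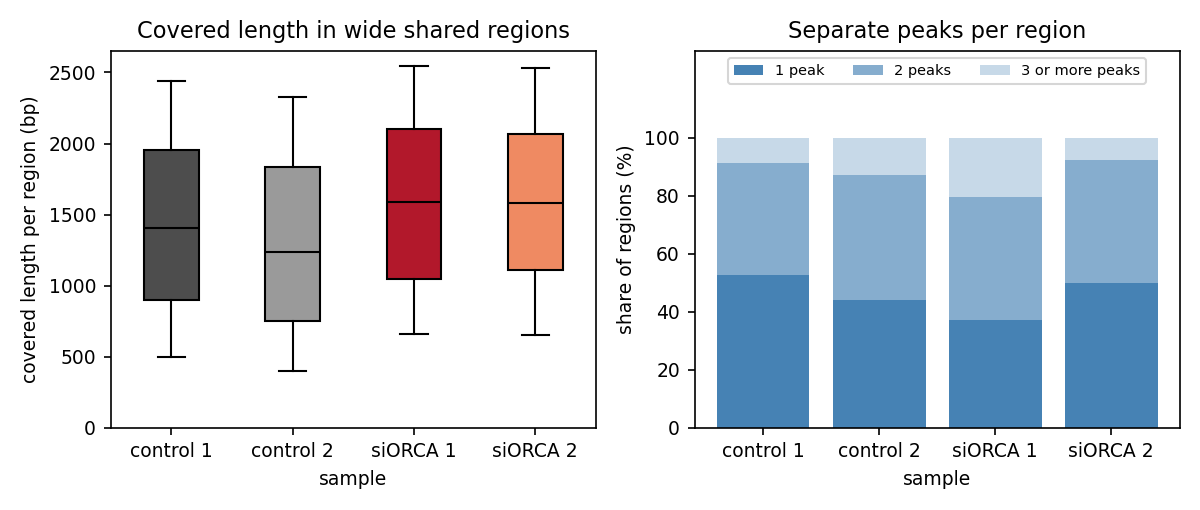
Left, covered length per wide region (vertical axis, bp) in each sample over 2213 regions, with the median as a line, the box from the 25th to the 75th percentile and whiskers from the 10th to the 90th percentile. Right, share of regions (vertical axis, %) with 1, 2 or at least 3 separate peaks, where both siORCA samples have higher medians on the left (1588 and 1584 bp) and siORCA 1 has the most regions with at least 3 peaks on the right (20.4%).

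Whether the extent of peaks differed after siORCA was asked first on sums per sample. Covered length and peaks inside a region help to make its merged width, and more regions reached 2000 bp through a siORCA list (726 and 640) than through a control list (565 and 540). Sums over the wide regions are therefore given as a description, with no test. Peaks in the wide regions covered 3.28, 2.99, 3.63 and 3.60 Mb in control 1, control 2, siORCA 1 and siORCA 2. The groups did not overlap and siORCA was higher, with a mean of 3.61 ± 0.0186 Mb against 3.13 ± 0.201 Mb (SD, n = 2 each). In the narrower shared regions both siORCA samples were also above both controls, at 23.9, 21.96, 24.8 and 26.0 Mb, with siORCA 2 highest. The higher sums in siORCA were thus not particular to the wide regions. The direction was the same in lists shortened to the same covered length, where the difference was 0.378 Mb against 0.479 Mb in the full lists.

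Relative to the list they belong to, the wide regions did not separate the groups. They held 5.60%, 4.47%, 4.21% and 5.62% of the covered length of the lists, in the usual order of samples. The control mean was 5.04 ± 0.804% and the siORCA mean 4.92 ± 0.998% (SD over 2 samples each). The difference of −0.119 percentage points turned to 0.450 without control 1 and to 0.587 without siORCA 1, and in lists of the same covered length it was 0.647. Mean peaks per region also overlapped, with a control mean of 1.64 ± 0.0991 and a siORCA mean of 1.73 ± 0.203 (SD over 2 samples each). Without siORCA 1 that difference turned from 0.0881 to −0.0551 peaks per region.

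Single regions were compared next. Both siORCA samples covered more bp than both control samples in 609 wide regions (27.5%), where the same held for 24.7% of all 57116 shared regions. Both covered less in 205 wide regions (9.26%), against 11.4% of all shared regions. These shares lie near those of all shared regions and are not a result about the wide ones. The excess of higher over lower moved with the scaling. After division by the total covered length of each list, 335 wide regions (15.1%) were higher and 333 (15.05%) lower in siORCA, against 12.5% and 17.2% of all shared regions. After centring each sample on its median over shared regions the numbers were 420 (18.98%) and 363 (16.4%), against 15.7% and 19.9% of all shared regions. On both scales lower outnumbered higher over all shared regions and not over the wide ones, a description that the choice of regions bears on. When 1 of the samples was omitted, the regions above control numbered 931 to 1163 and those below 446 to 603, as fewer samples have to be apart. Without control 1 there were 1163 and 498, without control 2 931 and 603, without siORCA 1 974 and 446, and without siORCA 2 951 and 484. Of all shared regions, 39.7% to 46.7% were then above control and 21.8% to 28.6% below, against 42.1% to 52.6% and 20.2% to 27.2% of the wide ones.

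For the number of separate peaks, both siORCA samples were above both control samples in 158 wide regions (7.14%) and below them in 97 (4.38%). The same held for 1.18% and 0.487% of all shared regions. Most narrower regions hold a single peak in each list and cannot separate by number, so the 2 kinds of region cannot be set against each other by this count.

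Covered length, which bears on the choice of the wide regions as said above, was tested in limma on log2(bp + 10), centred on the median of each sample, over all 57116 shared regions. No region passed an adjusted p of 0.05 (0 called, 0% of shared regions), wide or narrower. Of the wide regions 210 (9.49%) had an unadjusted p under 0.05 in limma, 131 higher and 79 lower in siORCA, where 5.82% of all shared regions did. Covered length helped to make the regions wide, so these shares and this split are a description and not a result about wide regions. The same holds for the median log2 differences below. The lowest adjusted p of a wide region in limma was 0.850. The median log2 difference was 0.06 over wide regions and −0.04 over all shared regions. Without scaling these medians were 0.25 and 0.15, a shift of all shared regions that the centring removes.

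The wide regions with the smallest p are given as values, since none passed the test. On chromosome 17 from 29934494 to 29936925, peaks covered 368 and 303 bp in control and 2217 and 2247 bp in siORCA. In limma the log2 difference there was 2.51, its SE 0.38 and its adjusted p 0.850. This region had no base common to all 4 samples. On chromosome 2 from 90143592 to 90146595 the values were 798 and 819 bp in control against 2924 and 2970 bp in siORCA, with a log2 difference of 1.66 (SE 0.29). On chromosome 22 from 46483526 to 46485531 they were 209 and 170 bp against 1248 and 1307 bp, a log2 difference of 2.50. In each of these 3 regions the groups were well apart and the samples of a group were close.

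In the other direction, a region on chromosome X from 151659545 to 151661857 was covered over 2149 and 2151 bp in control and 639 and 741 bp in siORCA. In limma its log2 difference was −1.82, its SE 0.33 and its adjusted p 0.850. On chromosome 6 from 109875336 to 109877551, 1527 and 1463 bp in control stood against 382 and 416 bp in siORCA, a log2 difference of −2.07. On chromosome 20 from 65551548 to 65554172, 1213 and 2168 bp in control stood against 344 and 309 bp in siORCA, a log2 difference of −2.47. These 6 regions were chosen for their p, so a clear separation is built in. With weaker peaks (−log10 q under 3) removed, the log2 differences on chromosomes X and 6 turned to 0.84 (SE 3.12) and 0.68 (SE 2.86). In lists of the same covered length the one on chromosome 22 turned to −0.89 (SE 2.42), and with the weaker peaks removed it was 0.43 (SE 3.11). In these shortened lists a sample could be left without a peak in a region. Each of these SEs exceeds its difference, so the signs are uncertain and show no reversal.

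The authors' fold enrichment of the strongest peak in a region describes how wide regions stand within each list. Its median was 5.04, 5.49, 8.60 and 5.74 in control 1, control 2, siORCA 1 and siORCA 2. As a percentile of all peaks of the list, the median was 82.3, 85.4, 87.8 and 82.4, against 73.8, 74.9, 78.6 and 76.6 for narrower shared regions. Between 5.11% and 6.55% of the wide regions held a peak from the top 1% of a list by fold, against 2.99% to 3.91% of the narrower ones. By their strongest peak, wide regions were therefore of above-average but mostly not extreme enrichment. That peak was picked from a mean of 1.57 to 1.87 peaks per list, against 1.04 to 1.10 in narrower regions. In the 210 wide regions with a single peak in every list, the median percentiles were 85.9, 88.8, 87.7 and 84.3. How far the number of peaks bears on the percentiles and on the top 1% shares was not tested. Where no base was common to all 4 samples, the median percentiles were 54.9, 64.4, 73.8 and 59.2, lower in each list than over all wide regions. In the 40 regions with a peak of at least 2000 bp in every list they were 95.4, 95.8, 97.0 and 91.3.

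The highest fold of any peak in the siORCA 1 and siORCA 2 lists fell in a wide region, on chromosome 7 from 1379301 to 1385834. The fold there was 58.6, 116, 371 and 187 in control 1, control 2, siORCA 1 and siORCA 2, which put its strongest peak at place 63, 5, 1 and 1 of those lists. Folds are the authors' and come from lists of unknown depth, so these places show no change. The region is 6534 bp wide and was covered over 5109, 4094, 3420 and 4073 bp, so its covered length was largest in control 1, where its fold was lowest. A region on chromosome 8 from 144814407 to 144816687 held the peak at place 5, 6, 34 and 4, with folds of 160, 111, 127 and 118. Its covered length was 937, 436, 1849 and 470 bp, so a strong peak did not need to be a wide one.

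Among the other leading regions by fold, some were covered unevenly and some alike by the samples. The region on chromosome 19 from 40997228 to 40999443 reached a fold of 144 in control 1 over 557 bp, and folds of 41.6, 119 and 78.0 in the other lists over 1742, 1718 and 1699 bp. On chromosome 22 from 36001266 to 36003543 the folds were 133, 85.1, 88.0 and 77.9, and the covered lengths 1278, 1198, 1180 and 1232 bp. On chromosome 19 from 43430477 to 43435681 control 2 reached 93.6-fold, and from 53736673 to 53738988 on the same chromosome siORCA 2 reached 79.4-fold. In siORCA 1 the second and the third place among wide regions were taken by chromosome 6 from 33241305 to 33244588, at 152-fold, and chromosome 1 from 227401502 to 227403511, at 143-fold. The last of these was a single peak in every list, covering 1390, 2010, 1319 and 1326 bp.

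Wide regions were unevenly placed among chromosomes. There were 0.724 per Mb over all chromosomes, 3.42 per Mb on chromosome 19, 2.45 on chromosome 22 and 2.37 on chromosome 17, but 0.0972 on chromosome X and 0.119 on chromosome 4. Shared regions of any width follow the same direction, with 52.6 per Mb on chromosome 19 and 5.90 on chromosome 4. The share of shared regions that were wide also varied, from 2.01% on chromosome 4 to 6.50% on chromosome 19. The gene-dense chromosomes 17, 19 and 22 together held 537 wide regions, 24.3% of them, on 6.46% of the length spanned by peaks. The gene-poor chromosomes 4, 13 and 18 held 58, or 2.62%, on 12.7% of that length. Of all shared regions there, 5.40% were wide in the first set and 2.26% in the second. These are positions in 1 genome and carry no test.

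**Figure D4:**
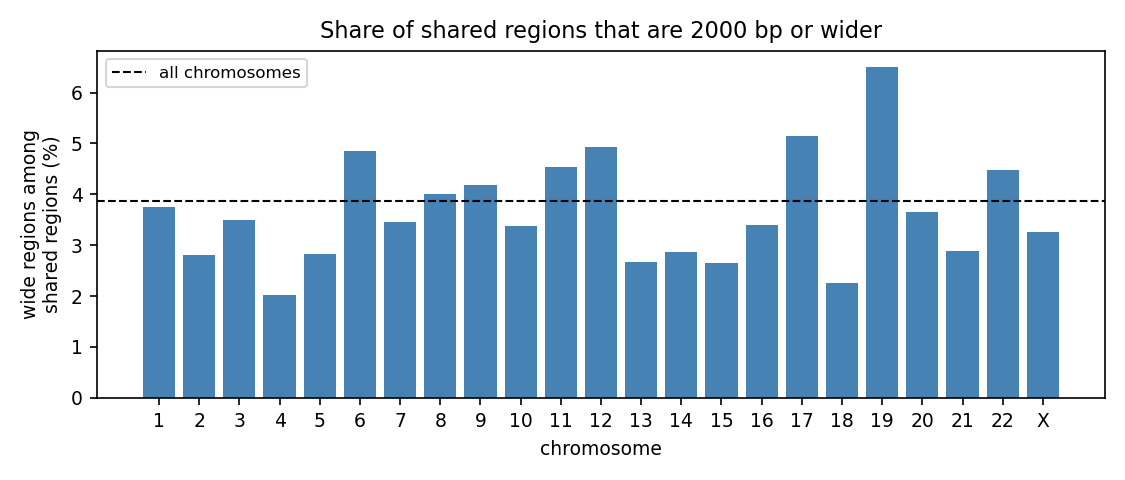
Share of the regions found in all 4 samples that are at least 2000 bp wide (vertical axis, %), by chromosome, with the share over all chromosomes (3.87%) as a dashed line. Chromosome 19 stands highest at 6.50% and chromosome 4 lowest at 2.01%.

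Wide regions were frequent near chromosome ends. Within 1 Mb of the outermost peak of a chromosome lay 155 of them, or 7.004%, against 3.84% of narrower shared regions, and within 5 Mb lay 27.1% against 18.8%. The first zone makes up 1.51% of the length spanned and the second 7.53%. In the 155 regions the median covered length was 1615, 1641, 1794 and 1409 bp in control 1, control 2, siORCA 1 and siORCA 2. There siORCA 2 was the lowest sample, while over all wide regions it was the second highest. Both siORCA samples covered more than both controls in 29 of the 155 (18.7%) and less in 20 (12.9%). The same held for 24.7% and 11.4% of all shared regions, and for 27.5% and 9.26% of all wide regions.

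Neighbouring wide regions were a median of 131 kb apart, from edge to edge, over 2190 gaps. The lower quartile was 32.0 kb, 266 (12.1%) of the gaps were at most 10 kb, and 123 were over 5 Mb. The nearest shared region of any width was a median of 2.15 kb from a wide region and 4.82 kb from a narrower one. The nearest wide region was 47.9 kb and 202 kb away, respectively. With members joined at gaps of at most 50 kb, 1082 wide regions stood alone, 548 were in pairs, 358 in groups of 3 to 4 and 225 in 35 groups of 5 or more.

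The closest neighbours were separated by gaps shorter than many peaks. On chromosome 2, regions from 10037814 to 10042184 and from 10042238 to 10044339 were 53 bp apart, and the first was covered over 4334, 2089, 2492 and 3961 bp in control 1, control 2, siORCA 1 and siORCA 2. On chromosome 12, 82 bp lay between regions from 57427248 to 57429380 and from 57429463 to 57432581. The first of these was covered over 122, 431, 2133 and 381 bp and the second over 1636, 112, 1384 and 2166 bp, so siORCA 1 covered the first in full, and control 2 covered little of either. On chromosome 6, 218 bp separated regions from 31844305 to 31846580 and from 31846799 to 31849594. Such pairs would count as 1 region if short gaps were bridged, and merging over gaps of up to 1 kb raised the number of wide shared regions from 2213 to 21576.

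The 1 Mb window with the most wide regions was on chromosome 8 from 143 to 144 Mb. It held 31 of them among 218 shared regions, a share of 14.2%. Peaks covered 47924, 46768, 51829 and 61458 bp of these 31 regions in control 1, control 2, siORCA 1 and siORCA 2. The sum was higher in both siORCA samples than in either control, as was the covered length in 11 of the 31 regions, and in 1 region it was lower in both. Over all shared regions, 24.7% were higher and 11.4% lower in both siORCA samples, and over all wide regions 27.5% and 9.26%. The window was picked for its number of wide regions, and its counts were not tested. In all, 723 windows held a wide region. Those with 5 or more numbered 154 and held 52.6% of the wide regions, against 24.9% of all shared regions.

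Chains of wide regions at gaps of at most 50 kb marked the same parts of the genome, and the longest are named here after their values were seen. The longest, of 14 regions, ran over 271 kb on chromosome 8 from 143554535 to 143825948, inside the window above. Its regions were covered over 23645, 21742, 27100 and 29765 bp in control 1, control 2, siORCA 1 and siORCA 2. A chain of 13 on chromosome 6 from 31844305 to 32077528 was covered over 16065, 19257, 23784 and 20205 bp, and it includes the pair 218 bp apart. A chain of 10 on chromosome 19 from 44706211 to 44886216 was covered over 17535, 15749, 18566 and 21822 bp. Of 9 regions each, a chain on chromosome 12 from 6778060 to 6978168 was covered over 14322, 11155, 18867 and 20866 bp, and one on chromosome 16 from 1044040 to 1244527 over 13609, 13359, 10235 and 14573 bp. In the first 4 chains both siORCA samples were above both controls, as they were over all wide regions together, and on chromosome 16 siORCA 1 was the lowest sample.

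Peaks outside the regions did not enter the rule, so they were compared as well. Where peaks lie close together, merging reaches 2000 bp more readily, so the surroundings are not independent of the rule. All 4 lists were also scored on the same regions, which were chosen from these lists jointly. Within 50 kb on each side of a wide region, lists held a mean of 21.97, 24.4, 34.0 and 25.4 peaks in control 1, control 2, siORCA 1 and siORCA 2. For narrower shared regions these means were 16.0, 18.3, 26.2 and 18.7. The difference was 6.64 ± 0.863 peaks (SD over 4 samples), higher around wide regions in 4 of 4 samples. The two-sided exact sign-flip permutation p was 0.125, the smallest that 4 samples allow, so it cannot pass a threshold of 0.05. It records only that the 4 differences had the same sign. Because the 4 lists share 1 set of regions, it does not measure the spread over regions and gives no independent support.

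The excess of neighbours reached far beyond the regions. In the bin from 1 to 2 kb outside the edge, lists held 28.8, 31.5, 42.7 and 33.7 peaks per 100 kb around wide regions in control 1, control 2, siORCA 1 and siORCA 2, and 19.8, 22.1, 31.6 and 23.1 around narrower ones. From 100 to 200 kb outside, they held 17.4, 19.6, 27.8 and 20.1 against 13.5, 15.7, 22.5 and 15.8. The ratio of wide to narrower was 1.35 to 1.46 in the first bin and 1.24 to 1.29 in the second. Values below 0.5 kb are low for both kinds. A peak that reached the edge of a region would have joined it, and how far this lowers the values was not tested.

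**Figure D5:**
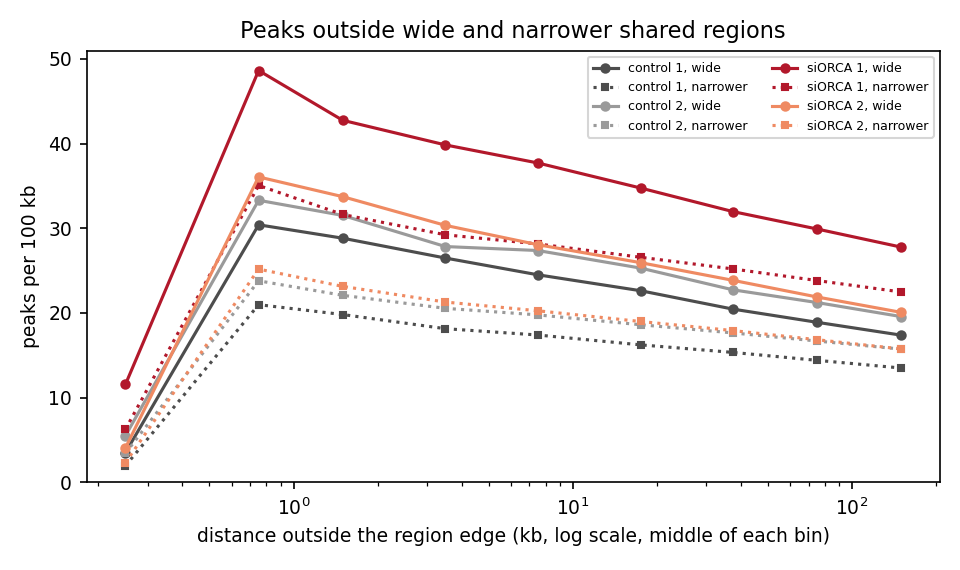
Peaks per 100 kb (vertical axis) by distance outside the edge of a region (horizontal axis, kb, log scale), for wide regions (circles, solid lines) and narrower shared regions (squares, dotted lines), 1 colour per sample. In each sample the solid line lies above the dotted one in every bin, from 1.35 to 1.46 times at 1 to 2 kb to 1.24 to 1.29 times at 100 to 200 kb.

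The number of neighbours rose with width without a step at 2000 bp. Shared regions under 500 bp had 13.3, 15.6, 22.3 and 15.7 peaks within 50 kb on each side in control 1, control 2, siORCA 1 and siORCA 2. Those from 1000 to under 2000 bp had 19.3, 21.7, 30.9 and 22.4, those from 2000 to under 3000 bp had 21.7, 24.1, 33.8 and 25.1, and those from 3000 to under 4000 bp had 23.3, 25.6, 35.5 and 27.0. For the 83 regions of 4000 bp or more the means were 23.1, 25.6, 34.4 and 25.5, no longer higher than in the class before in control 1, siORCA 1 and siORCA 2. The 40 regions with a peak of at least 2000 bp in every list had fewer neighbours than wide regions as a whole, at 18, 20.5, 27.7 and 20.7. These numbers were still above those of narrower shared regions in each sample (16.0, 18.3, 26.2 and 18.7). Regions that were broad in all 4 lists by themselves therefore lay in less crowded surroundings than wide regions as a whole. This is a description of 40 regions with no test.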

How the data were processed

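NS-seq peaks of 2 control and 2 siORCA samples of U2OS cells were used, grouped by GEO's titles. The submitters' processing notes name BWA, SAMtools and MACS2 and the build T2T-CHM13, without versions or settings. The deposited lists, 1 per sample and thus not pooled, give each peak's position, a score, a fold enrichment (a linear ratio), and −log10 p and −log10 q values, the lowest −log10 q being 1.303. No label says whether genomic DNA served as background. The score and the −log10 p were not analysed beyond the order of peaks with equal −log10 q.

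Peaks were merged where they touched or overlapped, and covered bp and separate peaks were counted per region and sample, with Python 3.11.15, numpy 2.4.6 and pandas 2.3.3. Covered length was tested in R 4.3.3 by limma 3.58.1 (eBayes with a trend on mean level after lmFit, p-values adjusted by Benjamini-Hochberg, threshold 0.05) on log2(bp + 10), a scale on which the pseudocount understates changes of short stretches. The fit was tried on simulated normal values with the same spread in every region and without the centring. That trial does not show how well changes would be found in the real lists. Sums per sample over wide regions are given without the planned permutation p, since covered length bears on the choice of members. Neighbouring peaks were tested by exact sign-flip permutation. A peak counted as a neighbour if its centre lay outside the region within 50 kb. The members and lists were chosen with earlier results of these data known. Regions were named by rule: the 5 widest, the 3 longest cores, the 3 with most peaks, the 3 of highest fold per list, the 3 closest pairs, the densest 1 Mb window, the 3 smallest p each way and the widths beside 2000 bp. Alternatives were a −log10 q of at least 3, lists of the same covered length, other merging, scaling, pseudocount, filter and flanks, the replicate number as a block, and each replicate left out. Depth is unknown, so no counting interval can be given.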

Additional observations from a re-analysis of the deposited data

How the results depend on the processing

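No wide region passed limma in any setting (0 called), which were the stricter list, lists of the same covered length, no scaling, the share of total length, a pseudocount of 200 bp, all merged regions and each replicate left out. With the replicate number as a block the count was also 0. Deviations of same-numbered samples correlated at −0.0460 over shared regions and at −0.0863 over wide ones. These values cannot tell whether same-numbered samples share a culture or a batch, which the labels do not say. The number of wide shared regions was 1364 with a −log10 q of at least 3 and 21576 with gaps of up to 1 kb merged, and 1505 to 1726 with a replicate left out. Peaks per region (siORCA minus control) turned to −0.0292 in lists of the same covered length, and ran from −0.0551 to 0.231 with a replicate left out. The share of covered length turned to 0.647 points in lists of the same covered length and 0.847 with gaps merged, and ran from −0.824 to 0.587 with a replicate left out. Total covered length kept its direction in every setting run (0.336 to 0.621 Mb with a replicate left out), as did the excess of neighbours (6.25 to 6.87 peaks). Leaving out a replicate could not turn either sign. Both siORCA sums lay above both control sums, the excess was positive in every sample, and the members stayed as chosen from all lists. The kept directions there are thus no support. The count of regions with more bp in both siORCA samples was 6244 with gaps merged (28.9% of wide and 25.7% of all shared regions), 335 by share of total length (15.1% and 12.5%) and 931 to 1163 with a replicate left out (42.1% to 52.6% and 39.7% to 46.7%). The count with fewer was 113 with the stricter list (8.28% and 10.2%), 1967 with gaps merged (9.12% and 10.9%), 333 by share (15.05% and 17.2%), 363 after centring (16.4% and 19.9%) and 446 to 603 with a replicate left out (20.2% to 27.2% and 21.8% to 28.6%). These scalings were added after seeing the data. The log2 differences of the regions starting at 46483526 on chromosome 22 (−0.89, SE 2.42, lists of the same covered length), 151659545 on chromosome X (0.84, SE 3.12, stricter list) and 109875336 on chromosome 6 (0.68, SE 2.86, stricter list) changed sign, each by less than its SE from no difference. Without changing sign, the first fell to 0.43 (SE 3.11) with the stricter list, where the region starting at 29934494 on chromosome 17 rose to 5.16 (SE 1.51). Over all merged regions the differences named were 0.94 on chromosome 17, 0.09 on chromosome 2, 0.93 on chromosome 22, −3.39 on chromosome X, −3.64 on chromosome 6 and −4.04 on chromosome 20, each lower by the same centring shift. Bridged gaps join more peaks by construction. For the other changes the cause was not tested.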

Other observations

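Regions of at least 2000 bp that lacked a peak in some sample numbered 195 of 2408, or 8.10%. Of these, 148 were found in 3 samples, 34 in 2 and 13 in 1. Among the 148, control 1 was the missing sample in 56, control 2 in 53, siORCA 2 in 23 and siORCA 1 in 16. The widest that lacked siORCA 2 measured 5397 bp, and the widest that lacked another single sample measured 2864 bp (siORCA 1), 3116 bp (control 1) and 3194 bp (control 2). Of the 34 found in 2 samples, 20 were found in control 2 and siORCA 1, 3 in both siORCA samples and 3 in both control samples.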
